A study of Mus musculus with 2 samples.

Results

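The growth arrest genes described here are the 3 genes of the Gadd45 family (Gadd45a, Gadd45b and Gadd45g) and 5 genes linked to p53 and growth arrest (Cdkn1a, Ccng1, Mdm2, Btg1 and Btg2). They make up 8 of the 24054 genes in the deposited TPM table and were found there by symbol. They were chosen by their levels in the same pair of libraries that is compared below, so every difference given here is a description and carries no test. TPM is a gene's share of the transcript pool per length, so that levels of different genes can be set side by side.

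The libraries hold liver RNA of Pgrmc1 KO mice (Pgrmc1 -/Y) and of WT mice. All were C57BL/6 males, 8 to 12 weeks old and housed with feed ad libitum, with no drug treatment stated for these samples. The paper names no fast before harvest for these mice. The KO is whole-body: a C57BL/6N allele with exons 1 and 2 between loxP sites was deleted with Sox2-Cre, which acts in the early embryo. Pgrmc1, a heme-binding membrane protein of the endoplasmic reticulum, lies on the X chromosome, so males carry a single copy. RNA of 5 mice per genotype, 2.5 μg from each, was pooled before library preparation, which left 1 library per genotype. The spread between mice was therefore not measured, and no difference between genotypes has a replicate check. The hour of harvest is not given in the sources used here. Pgrmc1 itself was at 0.68 TPM in KO against 949.49 TPM in WT, which follows the labels. The authors' means imply about 22086652 estimated reads on genes for the KO library and 29710378 for the WT library.

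Gadd45 proteins are small acidic proteins, named for growth arrest and DNA damage, that bind partners such as the kinase Map3k4, Pcna and the Cdk1 and cyclin B1 complex and carry signals of stress to p38 and Jnk kinases. They have also been tied to DNA repair and DNA demethylation. p53, the product of Trp53, is held low by the ubiquitin ligase Mdm2 and, once stabilised, raises transcription of Cdkn1a (p21), Ccng1, Gadd45a, Btg2 and Mdm2 itself. In liver these genes are known for their response to DNA damage, partial hepatectomy, cytokines, feeding and time of day.

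Gadd45g had the largest change of the 8 genes. Its level was 70.35 TPM in KO against 24.91 TPM in WT. The level of Gadd45a was 2.22 TPM in KO against 3.54 TPM in WT, and that of Gadd45b was 1.23 TPM in KO against 0.78 TPM in WT. Hence 1 paralog of the family was higher in KO by 2.75-fold on the TPM + 1 scale, while Gadd45a and Gadd45b were low in both libraries. Of the 8 genes, 1 passed a rise of at least 1.4-fold (Gadd45g), 0 passed a fall to at most 0.6-fold and 7 passed neither. The same rules called 1.09% of the 11623 genes whose mean reached 1 TPM up and 0.301% down. Because the genes were chosen on this contrast, nothing is read from that comparison.

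The 250 bases before the start of each Gadd45 gene are shown, since the paralogs differed widely in level. They are RefSeq sequences on GRCm38.p6, the assembly of mm10, written 5′ to 3′ on the strand of the gene, and the last base is the one just before the start. Capitals mark matches on either strand. The motifs searched were the TATA element (spelled TATAAA), the CCAAT box, the E-box spelled CACGTG, the CRE spelled TGACGTCA, the STAT motif spelled TTCNNNGAA, the FOXO motif spelled TGTTTAC and the p53 half-site by its name.
Gadd45g, chr13:51846425-51846674, plus strand: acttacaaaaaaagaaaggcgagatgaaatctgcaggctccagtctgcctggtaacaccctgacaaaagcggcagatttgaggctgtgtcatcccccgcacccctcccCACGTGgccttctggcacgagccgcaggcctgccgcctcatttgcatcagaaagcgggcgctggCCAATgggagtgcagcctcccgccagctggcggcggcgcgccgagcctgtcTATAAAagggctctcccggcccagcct
Gadd45a, chr6:67037408-67037657, minus strand: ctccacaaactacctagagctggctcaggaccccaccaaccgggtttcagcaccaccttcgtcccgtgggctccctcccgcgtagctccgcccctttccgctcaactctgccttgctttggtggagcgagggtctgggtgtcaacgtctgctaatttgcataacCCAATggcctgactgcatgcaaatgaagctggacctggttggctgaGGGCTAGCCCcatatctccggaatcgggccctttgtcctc
Gadd45b, chr10:80929841-80930090, plus strand: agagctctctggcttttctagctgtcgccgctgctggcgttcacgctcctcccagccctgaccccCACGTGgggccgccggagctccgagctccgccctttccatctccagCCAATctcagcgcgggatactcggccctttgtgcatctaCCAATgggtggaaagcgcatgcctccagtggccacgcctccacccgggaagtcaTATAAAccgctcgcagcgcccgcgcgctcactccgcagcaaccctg

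Gadd45g and Gadd45b each held the E-box letters, at positions -142 to -137 and -185 to -180 from the start, and a TATA box, at -27 to -22 and -46 to -41. Gadd45a held neither and had a p53 half-site match at -40 to -31. A CCAAT match was found in each of the 3 windows. Over all 32851 upstream windows of 27025 genes, the E-box letters were found in 6.02%, the TATA letters in 12.4%, CCAAT in 33.8% and the p53 half-site in 7.13%. The STAT letters, present in 7.02% of all windows, were in none of the 9 windows of the 8 genes (Cdkn1a has 2 starts). The FOXO letters, present in 3.17%, were in those of Btg1 and Mdm2, and the CRE, present in 1.55%, was in that of Btg2. GC content was 62% for Gadd45g, 59.2% for Gadd45a and 65.2% for Gadd45b, against a median of 52.4% over all windows. A match describes the letters alone, and binding was not measured here.

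Gadd45g (Entrez gene 23882) lies on chromosome 13, 51846675 to 51848475 of GRCm38, with 4 exons. It binds the same kinases as its paralogs and has been studied as a cytokine-induced gene. Its KO level of 70.35 TPM had a 95% interval of 65.8 to 75.1 TPM, and its WT level of 24.91 TPM one of 22.6 to 27.4 TPM. Both intervals cover counting error only, from about 900 estimated reads in KO and 424 in WT, and they do not overlap. The log2 change was 1.46, and the interval of the ratio of the authors' means ran from 1.35 to 1.69. No 100-base stretch of its transcripts was found in another gene. Its rank by log2 change was 22 of 11623 genes whose mean reached 1 TPM, where the 5th and the 95th percentile were -0.27 and 0.27 and the median was -0.01.

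Gadd45a (Entrez gene 13197; chromosome 6, 67035096 to 67037407, minus strand) is the family member most often described as a p53 target. At 2.22 TPM in KO against 3.54 TPM in WT, its log2 change was -0.50, on 32 and 69 estimated reads. The interval of the ratio of means, -1.33 to -0.05, lay just below 0, and the counting intervals of the levels (1.52 to 3.13 TPM in KO and 2.75 to 4.48 TPM in WT) overlapped. At 0.709-fold it did not reach the threshold of 0.6, though by log2 change it stood at percentile 0.981 of the genes whose mean reached 1 TPM. The noncoding gene E230016M11Rik overlaps it on the opposite strand and contains 12.3% of its 100-base windows. That gene had 12 estimated reads in KO and 14 in WT. The kit keeps strand, but the strand setting used in counting is not given in the sources used here, so the split of reads between these genes is uncertain.

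Gadd45b (Entrez gene 17873; chromosome 10, 80930091 to 80932204), known in liver as an early response gene of regeneration, was the lowest of the 8. At 1.23 TPM in KO against 0.78 TPM in WT, with 18 and 15 estimated reads, it passed the filter on low values only barely. Its log2 change was 0.33, at percentile 96.8 of the genes whose mean reached 1 TPM. The interval of the ratio of means, -0.37 to 1.79, holds 0. The direction of Gadd45b was therefore not detectable at this depth. Its interval also holds that of Gadd45g, 1.35 to 1.69, so counting error does not separate the change of Gadd45b from that of Gadd45g. On a scale with 0.1 TPM added, which weighs low genes more, its log2 change was 0.60 and it joined Gadd45g above 1.4-fold.

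The 3 coding sequences are alike but not close. Gadd45g and Gadd45b shared 70.5% of aligned bases, Gadd45g and Gadd45a 68.5%, and Gadd45a and Gadd45b 66.9%. The longest identical run in any pair was 17 bases, shorter than a read. Summed over the family, the level was 73.8 TPM in KO against 29.23 TPM in WT, of which Gadd45g made up 95.3% and 85.2%.

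**Figure D1:**
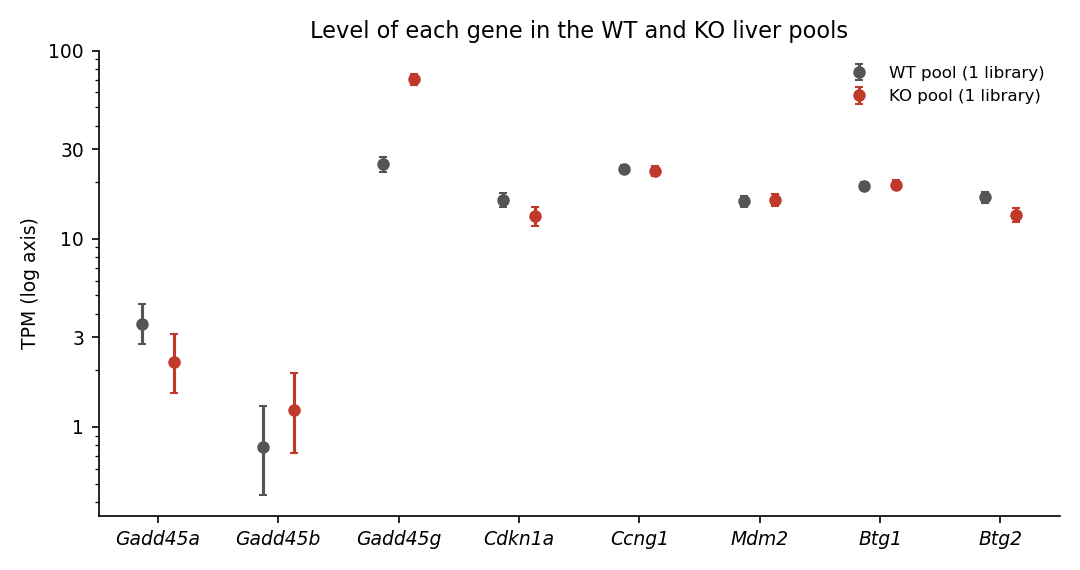
Level of each gene in TPM (log axis) in the WT pool (grey) and the KO pool (red), 1 library each; bars are 95% counting intervals and do not include the spread between mice. Gadd45g at 70.35 TPM in KO is the highest point, and Gadd45b at 0.78 TPM in WT is the lowest.

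Among the 5 p53-linked genes, Mdm2 and Ccng1 hardly differed between the libraries. Mdm2 (chromosome 10, 117688875 to 117710758, minus strand), both a target and the main inhibitor of p53, was at 16.11 TPM in KO against 15.87 TPM in WT. Its log2 change was 0.02, with an interval of the ratio of means from -0.11 to 0.18. Ccng1 (chromosome 11, 40748552 to 40755309, minus strand) encodes cyclin G1, a p53 target that works with Mdm2. It was at 22.94 TPM in KO against 23.44 TPM in WT, with a log2 change of -0.03 (-0.13 to 0.09). The intervals of both genes hold 0, on 662 and 873 estimated reads for Mdm2 and 1072 and 1468 for Ccng1.

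Cdkn1a and Btg2 were both somewhat lower in KO. Cdkn1a (chromosome 17, 29090979 to 29100722), the p21 inhibitor of cyclin-dependent kinases and the best known p53 target, was at 13.16 TPM in KO against 16.07 TPM in WT, on 321 and 525 estimated reads. Its log2 change was -0.27 (-0.48 to -0.07). Btg2 (chromosome 1, 134074865 to 134079155, minus strand), an antiproliferative protein that speeds the loss of poly(A) tails, was at 13.34 TPM in KO against 16.62 TPM in WT, on 547 and 913 estimated reads. Its log2 change was -0.30 (-0.46 to -0.15). Both intervals lie below 0, yet at 0.83-fold and 0.814-fold neither gene came near the threshold for falls. By log2 change, Cdkn1a stood at percentile 5.13 and Btg2 at percentile 4.11 of the genes whose mean reached 1 TPM. A gene model on the opposite strand (AC167363.2) overlaps Cdkn1a, and 5.33% of its 100-base windows are shared with other genes.

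The window before the distal start of Cdkn1a held p53 half-site matches, and the part around them is printed because this gene is the classical p53 target of the set. The 82 bases on the plus strand contain 2 matches, in capitals, of which the first begins 2863 bases before the second start of the gene. Only exact matches are marked. The stretch tgacatgttc, directly after the second match, departs from the half-site at its first base alone and is left in small letters.
Cdkn1a, chr17:29090881-29090962, plus strand: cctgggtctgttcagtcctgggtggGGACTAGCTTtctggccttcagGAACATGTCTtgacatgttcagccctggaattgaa
Windows of Ccng1, Gadd45a and Mdm2 held a p53 half-site match too, which makes 4 of 9 windows against 7.13% of all windows. Most of these genes were put in the set for their link to p53, so nothing is read from that share.

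Btg1, the paralog of Btg2 (chromosome 10, 96617001 to 96622813), was at 19.42 TPM in KO against 19.03 TPM in WT. Its log2 change of 0.03 had an interval from -0.06 to 0.15. The coding sequences of Btg1 and Btg2 shared 71.9% of aligned bases, with a longest identical run of 17. Thus 1 of the paralogs was at its WT level within counting error and the other 0.814-fold of it, and their sum was 32.76 TPM in KO against 35.65 TPM in WT.

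**Figure D2:**
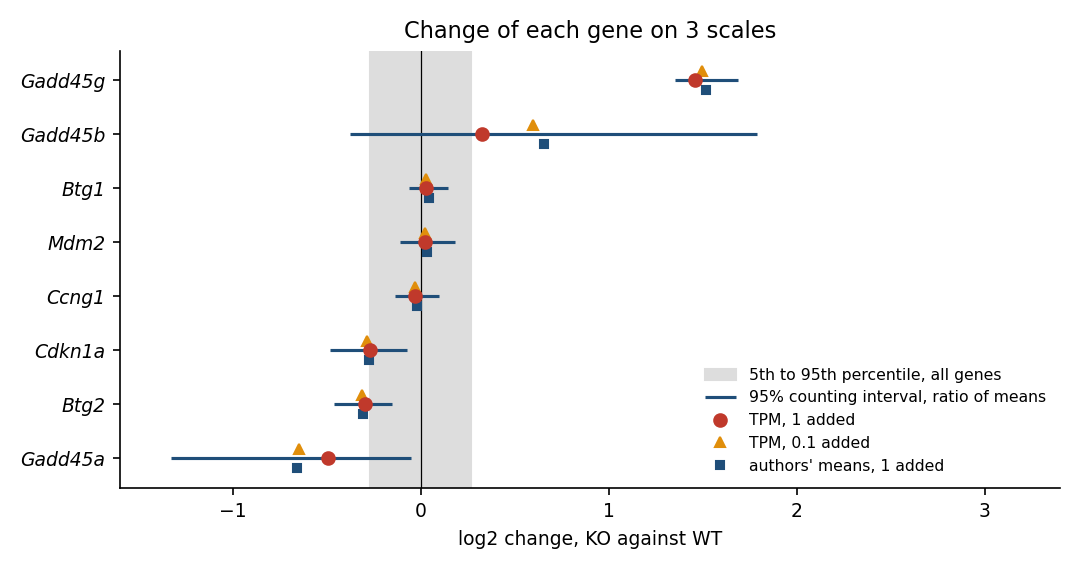
The log2 change of each gene, KO against WT, on 3 scales: TPM with 1 added (red circles), TPM with 0.1 added (orange triangles) and the authors' means with 1 added (blue squares); blue lines are 95% counting intervals of the ratio of means, and the grey band is the 5th to 95th percentile of all genes averaging at least 1 TPM. Only Gadd45g lies wholly above 0, from 1.46 to 1.52 on the 3 scales, while Gadd45b moves from 0.33 to 0.66 with an interval that holds 0.

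Over the 8 genes, the counting interval of the ratio of means lay wholly above 0 for 1 (Gadd45g), wholly below 0 for 3 (Gadd45a, Cdkn1a and Btg2) and held 0 for 4. Over the 11543 genes with such an interval it lay above 0 for 11.7% and below 0 for 13.4%. Of the log2 changes, 4 were above 0 and 4 below, with a median of -0.0047, against -0.01 over all genes whose mean reached 1 TPM. Of all those genes, 45.8% lay above 0. The 5 p53-linked genes summed to 84.97 TPM in KO against 91.03 TPM in WT, in a ratio of 0.933. All 8 summed to 158.77 TPM in KO against 120.26 TPM in WT, and without Gadd45g to 88.42 and 95.35 TPM, so that the sign of the difference in the sum turned on Gadd45g.

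The first 3 places in the order of the levels were the same in both libraries, and the middle of the order differed. In WT, Gadd45g and Ccng1 led with levels 1.06-fold apart and overlapping counting intervals, and Btg1 followed. Btg2, Cdkn1a and Mdm2 came next, and the intervals of Btg2 and Cdkn1a and of Cdkn1a and Mdm2 overlapped. In KO, Gadd45g was 3.07-fold above Ccng1 and the order went on through Btg1, Mdm2, Btg2 and Cdkn1a, with overlap only between Btg2 and Cdkn1a. Gadd45a and Gadd45b closed the order in both libraries, 4.54-fold apart in WT and 1.80-fold apart, with overlapping intervals, in KO.

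**Figure D3:**
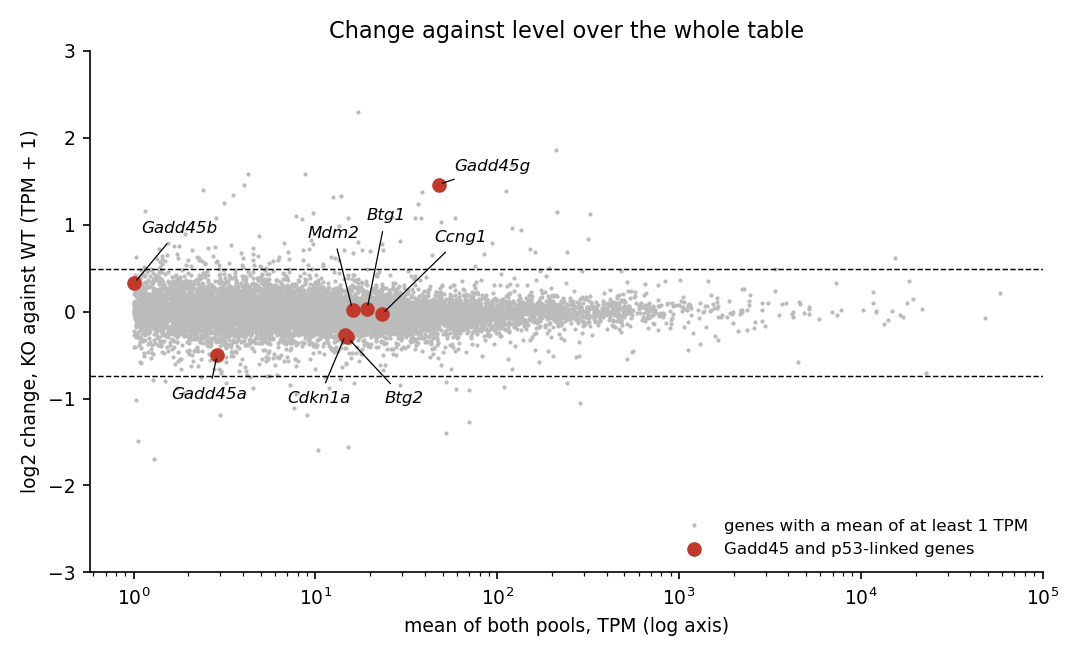
The log2 change, KO against WT (TPM + 1), against the mean level of both pools in TPM (log axis) for 11605 genes averaging at least 1 TPM (grey) and the 8 Gadd45 and p53-linked genes (red); 16 genes above 3 and 2 below -3 lie outside the axis, and dashed lines mark 1.4-fold and 0.6-fold. Gadd45g at a mean of 47.63 TPM lies far above the upper line, and the other 7 lie between the lines.

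The genes that control p53 were close to their WT levels. Of 16, 12 averaged at least 1 TPM, and 0 were up and 0 down by the fold rule. The changes of 6 were above 0 and of 5 below, with a median log2 change of 0.01. Of all genes at that level, 1.09% were up, 0.301% down and 45.8% above 0, so nothing is read from these counts. Trp53 itself was at 7.83 TPM in KO against 8.07 TPM in WT (log2 change -0.04). Mdm4, the second inhibitor of p53, was at 17.36 and 17.06 TPM (0.02). Changes ran from -0.16 for Trp53bp2, which codes for a p53-binding protein, to 0.14 for Ppm1d, a phosphatase that dampens the p53 response. Among kinases that act on p53, Atm was at 6.52 TPM in KO against 6.06 TPM in WT, and Chek2 at 1.4 TPM in both. Counting intervals lay above 0 for 1 of the 12 (Atm, 0.0007 to 0.23), below 0 for 1 (Usp7, -0.19 to -0.02) and held 0 for 10. Over all genes with such an interval, 11.7% lay above 0 and 13.4% below.

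Other p53 targets gave a like picture. Of 28, 21 averaged at least 1 TPM, 0 were up and 0 down, 7 lay above 0 and 14 below, and the median log2 change was -0.06. Trp53inp1, which codes for a stress protein that binds p53, was lowest at 64.58 TPM in KO against 79.7 TPM in WT, with a log2 change of -0.30 (-0.35 to -0.24). Tnfrsf10b, the receptor of the death ligand Trail, was highest at 4.0 TPM in KO against 2.8 TPM in WT, with a log2 change of 0.40 (0.21 to 0.85). Counting intervals lay above 0 for 2 of the 21 and below 0 for 3. Over all genes, 1.09% were up and 0.301% down, and 45.8% of the log2 changes lay above 0. Intervals lay above 0 for 11.7% and below 0 for 13.4%.

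None of the genes for partners of Gadd45 proteins passed the fold rule. All 14 averaged at least 1 TPM, 0 were up and 0 down, and the median log2 change was 0.03, with 10 above 0 and 4 below. Among all genes at that level, 45.8% lay above 0, 1.09% were up and 0.301% were down. The absence of calls is near those shares, so nothing is read from it. Map3k4, the kinase that Gadd45 proteins activate, was at 10.42 TPM in KO against 9.72 TPM in WT (log2 change 0.09). Gadd45gip1, named for its interaction with Gadd45 gamma, was at 28.13 and 26.66 TPM (0.07). Map2k6, a kinase that activates p38, was lowest at 4.42 TPM in KO against 5.74 TPM in WT, with a log2 change of -0.31 with an interval of -0.71 to -0.03. Tdg, a DNA glycosylase of the demethylation pathway, was highest with 3.73 TPM in KO against 3.21 TPM in WT (0.17, interval -0.12 to 0.55). Cdk1 and Ccnb1, genes of dividing cells, were near the filter in both libraries, with levels between 1.22 and 1.36 TPM.

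In the wider BTG and TOB family, with the CCR4-NOT deadenylase that these proteins bring to mRNA, 9 of 10 genes averaged at least 1 TPM, 1 was up and 0 were down, and the median log2 change was 0.01. The whole table had 1.09% up and 0.301% down. Btg3 passed upward at 2.32 TPM in KO against 1.17 TPM in WT (log2 change 0.61). It has no entry in the authors' means, so that no counting interval could be given. Tob2 was lowest at 24.31 TPM in KO against 31.39 TPM in WT, with a log2 change of -0.36 (-0.46 to -0.26), while its paralog Tob1 was at 74.92 and 70.19 TPM (0.09). The deadenylase subunits Cnot7 and Cnot8 had log2 changes of -0.03 and -0.09.

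Inhibitors of cyclin-dependent kinases other than Cdkn1a also stayed within the thresholds. Of 5, 3 averaged at least 1 TPM, and 0 were up and 0 down. Cdkn1b (p27) was at 15.7 TPM in KO against 16.05 TPM in WT. Cdkn2c was at 5.39 and 4.22 TPM (log2 change 0.29) and Cdkn2d at 1.49 and 2.42 TPM (-0.46), and both intervals hold 0. Of 15 genes for cyclins, cyclin-dependent kinases and proliferation, 14 were measured at that level, with 0 up, 0 down and a median of 0.01. Their changes ran from -0.43 for Ccng2, the paralog of Ccng1 (15.23 TPM in KO, 20.83 TPM in WT), to 0.34 for Cdk6 (11.59 and 8.94 TPM). Over all genes at that level, 1.09% were up and 0.301% down, so nothing is read from the counts of either list.

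Genes past the fold rule were found in 3 further lists of stress and signalling genes. Of 10 measured growth arrest and stress response genes, 1 was up and 1 down. Shares over the whole table were 1.09% up and 0.301% down. Ddit4 (Redd1), an inhibitor of mTOR signalling, was at 21.92 TPM in KO against 12.14 TPM in WT, with a log2 change of 0.80 (0.67 to 1.08). Ddit3 (Chop), a transcription factor of endoplasmic reticulum stress, was at 4.91 TPM in KO against 9.6 TPM in WT, with a log2 change of -0.84 on 46 and 123 estimated reads. These genes share a history with Gadd45 as DNA damage inducible transcripts, and they lay on opposite sides of their WT levels.

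Of 16 measured immediate early genes, which respond within minutes to growth factors and stress, 4 lay above 0 and 12 below, with a median log2 change of -0.12. The share above 0 over all genes whose mean reached 1 TPM was 45.8%, with 1.09% up and 0.301% down. Klf10, a zinc finger repressor, was the gene down at 11.5 TPM in KO against 21.11 TPM in WT (-0.82). Myc, which drives growth, was the gene up at 5.89 TPM in KO against 3.16 TPM in WT (0.73). Among the list, intervals of the ratio of means lay above 0 for 1 gene and below 0 for 6. Over all genes with such an interval the shares were 11.7% and 13.4%.

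The FOXO list holds 16 genes: Foxo1, Foxo3 and FOXO targets, which are switched on in liver when insulin signalling is low. Of the 16, 4 were up and 0 down, 8 lay above 0 and 8 below, and the median log2 change was 0.01. The whole table had 1.09% up, 0.301% down and 45.8% above 0. The counting intervals of this list lay above 0 for 4 genes and below 0 for 6, against 11.7% and 13.4% of all genes with such an interval. The list was written with earlier results of these data known, so nothing is read from these shares. Irs2, the insulin receptor substrate, was highest at 18.15 TPM in KO against 6.69 TPM in WT (log2 change 1.32). Igfbp1, a secreted binding protein of insulin-like growth factors, was at 294.54 and 132.17 TPM (1.15), and G6pc, the last enzyme of glucose release, at 445.52 and 204.76 TPM (1.12). Bcl6, a transcriptional repressor, was at 22.55 and 13.4 TPM (0.71). Tat, an enzyme of tyrosine breakdown, was lowest with a log2 change of -0.28. Pck1, which opens gluconeogenesis and was named after its values were seen, was at 2203.9 TPM in KO against 2550.6 TPM in WT (-0.21, interval -0.21 to -0.18).

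**Figure D4:**
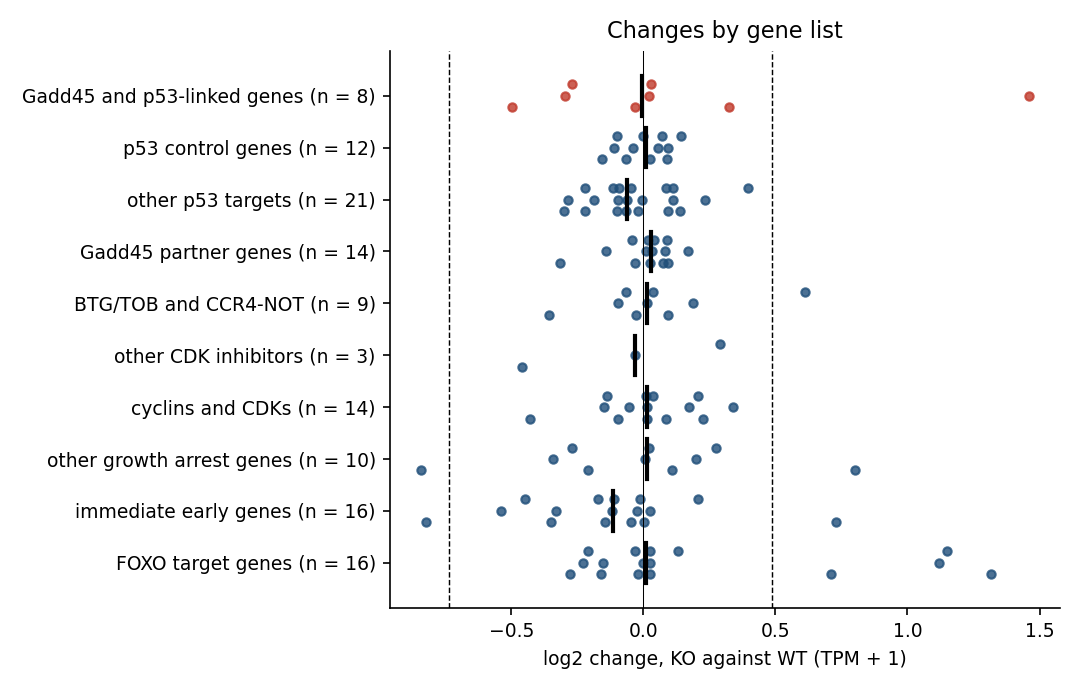
The log2 change, KO against WT (TPM + 1), of every gene with a mean of at least 1 TPM in the 8 Gadd45 and p53-linked genes (red) and in 9 related lists (blue); points are genes, spread vertically only to separate them, black bars are medians and dashed lines mark 1.4-fold and 0.6-fold. Medians lie between -0.12 (immediate early genes) and 0.03 (Gadd45 partner genes), with Gadd45g at 1.46 and Irs2 at 1.32 farthest to the right.

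The genes most like Gadd45g in this contrast were taken as its neighbours in the ranking by log2 change among the 6235 genes averaging at least 10 TPM, where it ranked 20. Over just 2 libraries this likeness says no more than that the changes are of like size. Of the 19 genes above it, 14 are listed at 0 in WT. Those just above were Saa2 (3.69), Saa1 (3.15), Orm2 (2.30), Mup9 (1.86) and Slc25a25 (1.69). Saa1, Saa2 and Orm2 are acute phase genes, and Slc25a25 codes for a mitochondrial carrier. The Saa, Orm and Mup genes have close paralogs, between which the authors' counting can split reads. Those just below were Snora43 (1.43), Rps27 (1.39), Mt2 (1.38), Cyp26a1 (1.33) and Irs2 (1.32). Snora43 rests on 4 and 1 estimated reads and Rps27 on 30 and 20, while Mt2, a metallothionein induced by metals and glucocorticoids, was at 55.9 TPM in KO against 20.86 TPM in WT.

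In pooled tissue, fewer cells of a type and less RNA per cell cannot be told apart, so the cell type markers were read in the same libraries. The hepatocyte markers summed to 80661 TPM in KO against 83937 TPM in WT (ratio 0.961, 1 of 8 above 0). Those of Kupffer cells and macrophages summed to 229.3 and 206.24 TPM (1.11, 7 of 8 above 0), those of endothelial cells to 162.17 and 178.7 TPM (0.908, 0 of 8) and those of stellate and mural cells to 265.06 and 294.03 TPM (0.901, 1 of 8). Cholangiocyte, lymphocyte and neutrophil markers summed to at most 66.96 TPM in either library, with ratios of 0.927, 0.883 and 1.09. The table lists 6 of the 8 lymphocyte markers, 5 of the 6 neutrophil markers and every marker of the other types. None was listed at 0 TPM. TPM here is a posterior mean, and some lymphocyte and neutrophil markers had 0 estimated reads in a library. Just 1 lymphocyte marker and 2 neutrophil markers averaged at least 1 TPM. The hepatocyte markers lead as the label liver would have them. The macrophage sum differed by 1.11-fold where Gadd45g differed by 2.82-fold in TPM, and the part of cell makeup in any result was not tested.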

How the data were processed

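Liver RNA was sequenced as 1 stranded total RNA library per genotype (5 mice pooled, 100-base paired reads). Per the submitters' processing notes, CASAVA 1.8.2, RSEM 1.2.09 and Bowtie were used, with mm10. The authors deposited RSEM posterior mean TPM for 24054 genes, after a further scaling whose factor is not given in the sources used here: the TPM of all genes add up to 1005325 for KO and 994702 for WT. The authors also deposited, for 16318 genes, a mean signal per library (estimated reads divided by an EBSeq size factor). The fold and probability columns beside it are the authors' own comparison and were not used. Within a tolerance of 0.02, 93.2% of low KO values and 92.6% of low WT values were whole multiples of 1.16 and 0.860, taken as the value of 1 read. TPM itself keeps no depth.

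Changes are log2((KO TPM + 1)/(WT TPM + 1)). This scale shrinks the change of genes with low TPM. Up is a fold of at least 1.4 and down one of at most 0.6, for genes averaging at least 1 TPM with a TPM above 0 in both libraries. With 1 library per genotype no test was run. Intervals (95%) of the ratio of means are Clopper-Pearson and those of levels exact Poisson. They rest on estimated reads after rounding and hold counting error alone. The 8 genes, the related lists and the markers were chosen with earlier results of these data known. Genes named were the 8, any member of the p53 control, Gadd45 partner, BTG and TOB and inhibitor lists averaging at least 1 TPM, the genes past the fold rule and the extremes of other lists, and the 5 neighbours of Gadd45g on each side. E230016M11Rik and AC167363.2 were named for their overlap, and Foxo1 and Foxo3 as the factors in the FOXO list. Gene positions, exons and overlaps are those of GENCODE M21 and RefSeq on GRCm38, and upstream sequences are from RefSeq. On simulated libraries that held counting error alone, the intervals were tested before use. The fold rule was tested there on the scale of the authors' means, for well-read genes with large changes. Calls on TPM, calls of genes with few reads and false calls were not tested. Alternatives were 0.1 TPM added, the authors' means, a shift of the median gene to 0, TPM rescaled after leaving out the 50 most abundant genes, other fold thresholds and other filters. Python 3.11.15, numpy 2.4.6, pandas 2.3.3, scipy 1.17.1, matplotlib 3.10.9 and biopython 1.88 were used.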

Additional observations from a re-analysis of the deposited data

How the results depend on the processing

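The log2 changes of the 8 genes moved by less than the distance from the middle to the end of their counting interval in all 32 recomputations (0.1 TPM added, the authors' means, a shift of the median gene to 0, TPM rescaled after leaving out the 50 most abundant genes), and 0 changed sign. A sign could not turn with 0.1 TPM added, nor with the median gene moved from -0.013, less than the smallest change (0.020 for Mdm2). The measure is wide for Gadd45b, whose change went from 0.33 to 0.66 with the authors' means. With 0.1 TPM added or with the authors' means, 2 of the 8 were up in place of 1, since Gadd45b joined Gadd45g, and 1 was down (Gadd45a) when falls to 0.7143, the inverse of 1.4, were counted. Over the whole table, where 127 genes were up and 35 down, 266 were up and 70 down with 0.1 TPM added, 286 and 72 with the authors' means, 31 and 13 at folds of 2 and 0.5, and 48 and 17 with a mean of at least 10 TPM, while 118 were down at 0.7143. Of 98 recomputed medians of the 8 genes, the related lists and the markers, 96 moved by less than the same measure taken as the median over their genes, and the other two were the hepatocyte markers. Of the 98, 7 changed sign. The median of the 8 genes went from -0.0047 to 0.0072 with the authors' means and to 0.0085 with the median gene at 0. At a mean of 10 TPM or more, that of p53 control genes went from 0.01 to -0.07 and that of the BTG and TOB list from 0.01 to -0.03. With no filter, that of growth arrest and stress response genes went from 0.01 to -0.0020. The last 2 were the lymphocyte marker under the same pair of settings as the 8 genes. Without a change of sign, the inhibitor median went from -0.03 to -0.21 with no filter and the growth arrest median to 0.11 at a mean of 10 TPM or more. No paired analysis was possible because the pools give 1 library per genotype. Depth limits Gadd45a and Gadd45b most, with at most 69 estimated reads in a library, and the spread between mice was not measured for any gene.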
